A study of Homo sapiens with 6 samples.

Results

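The genes examined here encode the protein subunits of the mitochondrial ribosome (MRP genes). They were chosen by name, as the protein-coding genes of the autosomes and the X chromosome whose symbol begins with MRPL or MRPS followed by digits. This rule gave 77 of 19821 protein-coding genes in the RefSeq gene table of GRCh38.p14. Of these, 51 encode proteins of the large subunit and 26 proteins of the small subunit, with MRPS18A and MRPS30 counted in the large subunit, where their products are found. By textbook classification, 47 have a bacterial counterpart and 30 are specific to mitochondria. They lie on 21 chromosomes, with 8 members each on chromosomes 1, 2 and 17.

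The data are from U2OS cells, a human osteosarcoma line, in which chromatin immunoprecipitation and sequencing (ChIP-seq) with the antibody BG4 mapped DNA G-quadruplexes (G4s), structures of stacked guanines that form in guanine-rich DNA. One group of cells was left untreated (Ctrl) and the other was treated with 1,6-hexanediol (HD), an alcohol used to dissolve condensates of proteins and nucleic acids. The dose and time of treatment were not stated in the labels used. Both groups had 2 ChIP libraries and 1 input library, and 1 peak list per group was analysed, with 3376 Ctrl and 2172 HD peaks on the chromosomes used. All 2269 peak names of the complete HD list carry the number of replicate 1, so it is unknown whether the second HD library contributed to it. With a single list per group there is no replicate error, and no difference between the groups was tested. Expression was not measured, so the label of the cell line was not checked against markers. All intervals are exact 95% intervals for counting error only, since each group has 1 peak list and no value per library. The protocols name no molecular identifiers.

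Mitochondrial ribosomes translate the few proteins encoded by mitochondrial DNA, all of them subunits of the respiratory chain and ATP synthase. Their ribosomal RNAs come from the mitochondrial genome, but every one of their proteins is encoded in the nucleus, made in the cytosol and imported. The nuclear genes are expressed in nearly all cell types, mostly from GC-rich promoters, and BG4 peaks in cultured cells lie preferentially at active GC-rich promoters.

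A gene was called marked when a peak touched a window of 1 kb either side of either gene end. Among the 77 MRP genes, 7 were marked: MRPS9 in both lists, MRPL33, MRPL18, MRPL32, MRPS23 and MRPL38 in Ctrl alone, and MRPL51 in HD alone. The RefSeq promoter sequences that follow are the 250 bases before the annotated start, written 5′ to 3′ on the strand of the gene, in build GRCh38.p14, the assembly also called hg38. Capitals mark G4 motifs, defined as at least 4 runs of GGG with 1 to 7 bases between them. A stretch with runs of CCC in capitals has its G runs on the opposite strand. The first 3 belong to MRPS9, the gene marked in both lists, and to MRPL32 and MRPL51, which had the most fragments among the genes marked in Ctrl alone and in HD alone. None of them holds the motif, although their G runs and C runs can be seen.
MRPS9 (chr2:105037819-105038068, plus strand): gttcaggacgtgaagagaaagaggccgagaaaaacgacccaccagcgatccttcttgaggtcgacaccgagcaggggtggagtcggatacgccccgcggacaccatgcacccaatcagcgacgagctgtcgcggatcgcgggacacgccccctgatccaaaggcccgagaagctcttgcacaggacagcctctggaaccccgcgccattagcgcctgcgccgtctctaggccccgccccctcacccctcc
MRPL32 (chr7:42932126-42932375, plus strand): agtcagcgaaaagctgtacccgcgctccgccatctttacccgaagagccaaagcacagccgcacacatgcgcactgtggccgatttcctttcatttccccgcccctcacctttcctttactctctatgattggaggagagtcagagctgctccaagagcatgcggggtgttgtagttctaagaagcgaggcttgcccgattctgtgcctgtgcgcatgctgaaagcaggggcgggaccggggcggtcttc
MRPL51 (chr12:6493263-6493512, minus strand): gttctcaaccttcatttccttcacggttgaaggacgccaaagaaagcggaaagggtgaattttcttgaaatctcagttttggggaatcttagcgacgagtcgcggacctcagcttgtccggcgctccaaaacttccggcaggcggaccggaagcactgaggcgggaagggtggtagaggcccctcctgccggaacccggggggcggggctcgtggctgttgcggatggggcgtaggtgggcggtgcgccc
The next 2 are from marked genes that do hold it, MRPL18 and MRPL38.
MRPL18 (chr6:159789562-159789811, plus strand): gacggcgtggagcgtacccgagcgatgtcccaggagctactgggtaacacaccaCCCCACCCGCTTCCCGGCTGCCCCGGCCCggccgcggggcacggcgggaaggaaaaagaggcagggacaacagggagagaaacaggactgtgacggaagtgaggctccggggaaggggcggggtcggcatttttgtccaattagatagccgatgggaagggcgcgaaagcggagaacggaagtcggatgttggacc
MRPL38 (chr17:75904885-75905134, minus strand): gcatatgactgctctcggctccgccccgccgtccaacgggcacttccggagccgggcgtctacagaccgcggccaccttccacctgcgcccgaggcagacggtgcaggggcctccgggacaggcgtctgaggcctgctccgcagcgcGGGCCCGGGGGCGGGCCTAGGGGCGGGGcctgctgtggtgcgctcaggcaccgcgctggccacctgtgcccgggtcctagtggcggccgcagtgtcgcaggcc
The last 2 are from unmarked genes, MRPL41 and MRPS14, whose windows had the most motif bases among unmarked members (111 and 46).
MRPL41 (chr9:137551629-137551878, plus strand): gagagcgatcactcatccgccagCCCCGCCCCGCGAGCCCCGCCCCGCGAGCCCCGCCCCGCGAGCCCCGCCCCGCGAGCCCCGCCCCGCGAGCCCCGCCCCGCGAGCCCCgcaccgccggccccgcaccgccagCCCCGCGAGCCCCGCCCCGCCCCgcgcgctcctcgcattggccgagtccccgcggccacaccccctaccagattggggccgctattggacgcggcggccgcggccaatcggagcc
MRPS14 (chr1:175023426-175023675, minus strand): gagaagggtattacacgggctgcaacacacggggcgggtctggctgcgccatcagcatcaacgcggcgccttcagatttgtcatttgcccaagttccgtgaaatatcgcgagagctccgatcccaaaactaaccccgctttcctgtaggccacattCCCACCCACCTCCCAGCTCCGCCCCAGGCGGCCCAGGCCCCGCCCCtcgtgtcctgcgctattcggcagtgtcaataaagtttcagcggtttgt
The MRPL41 promoter repeats 1 C-rich unit several times and carried no peak in either list. The nearest Ctrl peak was 38.0 kb away and the nearest HD peak 293 kb. The sequences of MRPL32, MRPL51, MRPL18 and MRPL38 were selected for display after their values were seen.

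In untreated cells, 6 of 77 MRP genes were marked (7.79%, interval 2.91 to 16.2), against 10.9% of all 19821 protein-coding genes. After hexanediol 2 were marked (2.60%, 0.316 to 9.07), against 8.11% of all protein-coding genes. Both shares were below the share of all genes, but both intervals include it, so at 77 genes neither count could be told from the background. One gene, MRPS9, was marked in both lists (1.30%, background 5.20%). The Ctrl list alone marked 5 members (6.49%, background 5.70%) and the HD list alone marked 1 (1.30%, background 2.92%). Taking both lists, 70 members were unmarked, and 7 were marked in at least 1 list (9.09%, interval 3.73 to 17.8, background 13.8%). The HD list was 35.7% shorter than the Ctrl list, and fewer marked genes in it also held for all genes. With both lists at 2172 peaks this no longer held for the other protein-coding genes, with 7.83% marked in Ctrl and 8.13% in HD. At this length 5 MRP genes (6.49%) were marked in Ctrl and 2 (2.60%) in HD, and the difference was not tested.

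The marked members were spread over both subunits. In the large subunit, 4 of 51 genes were marked in Ctrl (7.84%) and 1 in HD (1.96%). In the small subunit, 2 of 26 were marked in Ctrl (7.69%) and 1 in HD (3.85%). Of the 47 genes with a bacterial counterpart, 4 were marked in Ctrl and 1 in HD, and of the 30 specific to mitochondria, 2 and 1 were marked. All intervals around these shares overlap, and they include the 10.9% (Ctrl) and 8.11% (HD) of all protein-coding genes. The 5 further subunits known under other symbols (DAP3, PTCD3, CHCHD1, AURKAIP1 and GADD45GIP1) had no peak in either list.

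**Figure D1:**
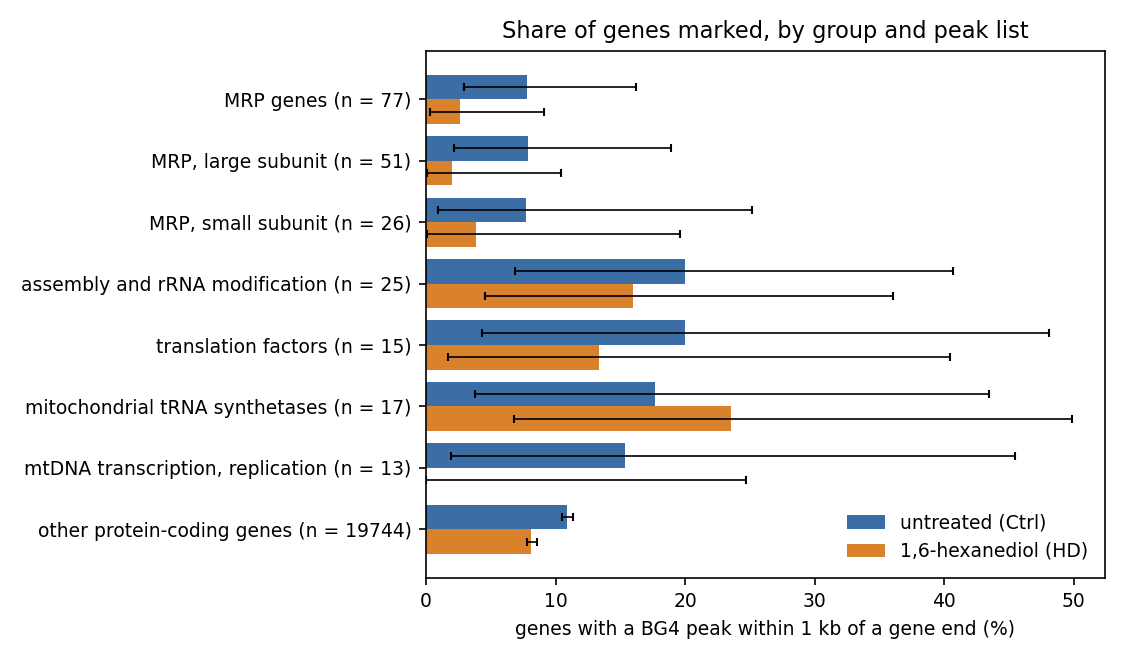
Share of genes with a BG4 peak within 1 kb of a gene end, in percent, for MRP genes, their subunits, 4 groups of mitochondrial gene expression genes and all other protein-coding genes. Bars show the Ctrl and HD lists and lines the exact 95% binomial intervals. The MRP genes reach 7.79% in Ctrl and 2.60% in HD, and their intervals include the 10.9% and 8.13% of the other genes.

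The values below are ChIP fragments over the peak summit, recovered from the deposited fold and p-value of each peak, and the fragment number expected there from input on the same scale. Over an average base of the genome there were 3.74 ChIP fragments in Ctrl and 5.51 in HD. The HD track was therefore 1.47 times as deep, and a higher raw number in HD is not a higher signal.

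MRPS9 (gene ID 64965, chromosome 2, 105038069 to 105099960, hg38, plus strand), the counterpart of bacterial S9 in the small subunit, was the only member with a peak in both lists. The Ctrl peak (105037869 to 105038112) held 32 fragments (21.9 to 45.2) where input gave 5.16, a ratio of 6.20 (4.24 to 8.75). The HD peak (105037893 to 105038113) held 44 (32.0 to 59.1) where input gave 7.28, a ratio of 6.04 (4.39 to 8.11). Both peaks covered the start of the gene, with summits 56 and 51 bp upstream of it. Corrected for the depth of the tracks, the HD to Ctrl ratio was 0.932 (0.578 to 1.52), and set against the local input expectation it was 0.975 (0.605 to 1.59). Both intervals include a ratio of 1, and both are wide. The authors' fold enrichment was 5.30 in Ctrl and 5.23 in HD, higher than that of 83.9% and 87.9% of the peaks of the respective list. No other protein-coding gene end lay near, the closest being that of POU3F3 at 110 kb.

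MRPL32 (gene ID 64983, chromosome 7, 42932376 to 42937857, plus strand) had the peak with the highest fold of any member. Its product is the counterpart of bacterial L32 and is matured by the inner membrane m-AAA protease before it joins the large subunit. The Ctrl peak (42932123 to 42932454) held 36 fragments (25.2 to 49.8) against 4.65 from input, a ratio of 7.74 (5.42 to 10.7), and its fold of 6.47 was above that of 96.1% of Ctrl peaks. The summit lay 43 bp upstream of the start, and the nearest HD peak was 20.2 kb away. The same peak marks PSMA2, which encodes an alpha subunit of the proteasome core. It is read from the other strand, with its start 202 bp from the MRPL32 start.

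MRPL38 (gene ID 64978, chromosome 17, 75898644 to 75904884, minus strand), specific to the mitochondrial large subunit, had 34 Ctrl fragments (23.5 to 47.5) against 6.47 from input. Its peak (75904946 to 75905249) had a summit 189 bp upstream of the start, and the centre of its G4 motif lay 99.5 bp from the summit. MRPS23 (gene ID 51649, chromosome 17, 57834781 to 57850044, minus strand), specific to the mitochondrial small subunit, had 32 Ctrl fragments (21.9 to 45.2) against 6.58, in a peak (57850053 to 57850286) with its summit 98 bp upstream. Neither gene shares its peak with another protein-coding gene, and the nearest HD peaks were 43.0 kb and 18.2 kb away. Both stood 5.25 and 4.86 times above input, close to the middle of their list, in which 65.9% and 54.7% of peaks had a lower fold.

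MRPL33 (gene ID 9553, chromosome 2, 27771719 to 27779733, plus strand), the counterpart of bacterial L33, had 28 Ctrl fragments (18.6 to 40.5) against 6.47 from input. Its peak (27771645 to 27771900) covered the start, with the summit 29 bp upstream, and the nearest HD peak was 401 kb away. MRPL18 (gene ID 29074, chromosome 6, 159789812 to 159798429, plus strand), the counterpart of bacterial L18, had 26 Ctrl fragments (17.0 to 38.1) against 6.47. These were the weakest members, with folds of 3.85 and 3.59 that exceeded 36.2% and 28.2% of Ctrl peaks. The MRPL18 peak (159789511 to 159789790) has its summit 233 bp upstream and lies nearer to TCP1, a subunit gene of the cytosolic chaperonin CCT. TCP1 is read from the other strand, and its start is 210 bp from the MRPL18 start. The peak was counted for TCP1 alone when each peak was given to the gene with the nearest end. The G4 motif of the MRPL18 promoter was centred 51 bp from the summit.

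MRPL51 (gene ID 51258, chromosome 12, 6491886 to 6493262, minus strand), specific to the mitochondrial large subunit, was the only member marked after hexanediol alone, and it carried 2 HD peaks. The first (6493076 to 6493419) held 40 fragments (28.6 to 54.5) against 6.61 from input and had its summit 7 bp inside the gene. The other (6493812 to 6494112) held 39 (27.7 to 53.3) against 6.25 and had its summit 684 bp upstream. Both also mark NCAPD2, a subunit gene of the condensin complex, read from the other strand with its start 840 bp from the MRPL51 start. The upstream peak reaches the NCAPD2 start, and its summit lies nearer to that start than to the MRPL51 start. The folds of 5.17 and 5.28 were above those of 86.7% and 89.2% of HD peaks. The nearest Ctrl peak was 20.8 kb away.

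**Figure D2:**
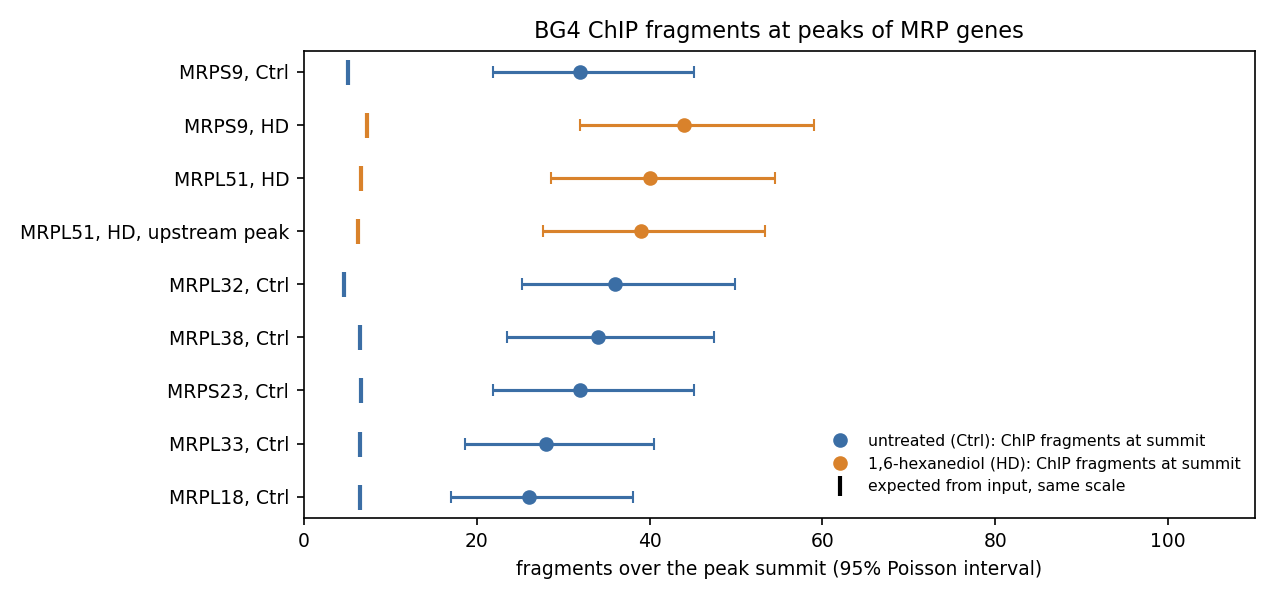
ChIP fragments over the summit of each peak at an MRP gene (points, with 95% Poisson intervals) and the number expected from input on the same scale (vertical ticks), not corrected for the 1.47 times greater depth of HD. The Ctrl peaks hold 26 to 36 fragments and the HD peaks 39 to 44, all above their input expectation.

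Across the 9 peaks, the authors' fold was 3.59 to 6.47 in Ctrl and 5.17 to 5.28 in HD, against list medians of 4.18 and 4.06. The 9 include the MRPL18 peak, which lies nearer to TCP1, and the upstream MRPL51 peak, which lies nearer to NCAPD2. The fold was above the list median at 4 of 6 Ctrl and all 3 HD peaks. The Ctrl peaks held a median of 32 fragments and the HD peaks a median of 40, where the lists had medians of 28 and 38. Peak widths were 234 to 332 bp in Ctrl and 221 to 344 bp in HD, around the list medians of 263 and 272 bp. For every marked member the closest summit lay nearer to the start than to the far end of the gene. This was also so for 95.7% of other marked genes with a RefSeq promoter in Ctrl and for 94.0% in HD.

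Where a list has no peak, nothing was called, and the fragments there were not analysed here. For scale, the Ctrl fragments of the 5 members marked in Ctrl alone were multiplied by the depth ratio. At HD depth, MRPL32 would hold 53.1 fragments, MRPL38 50.1, MRPS23 47.2, MRPL33 41.3 and MRPL18 38.3. HD peaks whose input expectation was 1 to 2 times that at MRPL32, also scaled by the depth ratio, had at least 23 fragments, and those matched in this way to the other 4 genes had at least 28. In the other direction, the 2 HD peaks of MRPL51 would hold 27.1 and 26.4 fragments at Ctrl depth, where like Ctrl peaks had at least 17 and 16. All of these numbers are above the lowest called in the other list, but not all are above the middle of the like peaks. The like HD peaks had a median of 39 fragments for MRPL32 and of 45 for the other 4 genes, so MRPL33 and MRPL18 would lie below it and MRPL32, MRPL38 and MRPS23 above. The like Ctrl peaks had medians of 28 and 27, both above the numbers of MRPL51. The members compared were those that 1 list called, which favours high fragment numbers in that list. The lowest of many called peaks is also a low bar, so passing it does not show that a peak should have been called. The scaled numbers do not say how many fragments lay at these sites, and the spread between libraries is unknown.

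The window of 1 kb did not split the members closely. The marked genes whose peak reached least far towards them were MRPL38, MRPL18 and MRPS23, with the peak edge 62, 22 and 9 bp from the gene. The closest peaks at unmarked genes were all in HD: 2.67 kb from MRPL22, 4.22 kb from MRPL49 and 8.09 kb from MRPL48. The first marks GEMIN5 and the second ZNHIT2. The 3 HD peaks held 29, 25 and 31 fragments. MRPL48 had a Ctrl peak almost as close, at 8.12 kb, while the nearest Ctrl peaks of MRPL22 and MRPL49 were 82.459 kb and 94.65 kb away. Besides the 7 marked genes, 4 members had a peak of either list within 10 kb, 32 within 100 kb, 26 within 1000 kb and 8 farther away. The median distance to the nearest Ctrl peak was 94.9 kb for MRP genes and 201 kb for other protein-coding genes. To the nearest HD peak it was 283 kb and 326 kb, respectively. The median MRP gene thus lay nearer to a Ctrl peak than the median of the other genes, and no test was made. MRP genes also more often had an end of another protein-coding gene within 1 kb (54.5% against 28.4%). The part of close genes in these distances was not tested. Among unmarked genes, 3 were picked for the known roles of their products after the values were seen. MRPL12, whose product also binds the mitochondrial RNA polymerase, had its nearest peak 36.6 kb away in each list. MRPL58, a peptidyl-tRNA hydrolase built into the large subunit, had it at 25.7 kb in each. MRPS12, a protein of the decoding centre, had it at 80.5 kb in Ctrl and 283 kb in HD.

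**Figure D3:**
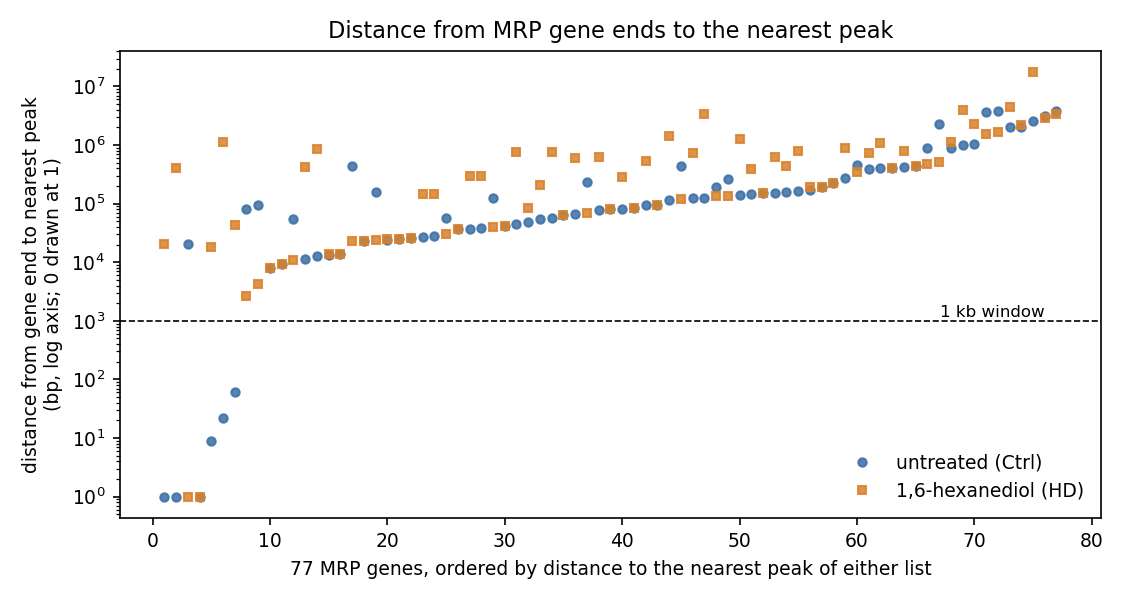
Distance in bp (log axis) from the nearer gene end to the nearest Ctrl peak (circles) and HD peak (squares) for each of the 77 MRP genes, ordered by the smaller distance. Distances of 0 are drawn at 1. The marked genes lie at 62 bp or less and no other member comes closer than 2.67 kb.

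The G4 motif was counted in the promoters of MRP genes and of other genes, as a description with no test of the difference. Of the 77 members, 69 have a RefSeq promoter window of 300 bases (250 before to 50 after the start), and 1 window per gene was used, the one nearest the outer gene end. The motif, searched on both strands, was present in 11 of 69 windows (15.9%, interval 8.24 to 26.7), against 30.2% of 15743 windows of other protein-coding genes. With 1 to 12 bases allowed between the runs, the shares were 27.5% (17.5 to 39.6) and 45.2%. The G runs were on the strand of the gene at MRPL24, MRPL14, MRPS33, MRPL28, MRPL38 and MRPS6. They were on the opposite strand at MRPS14, MRPL18, MRPS24, MRPL41 and MRPS34. The large subunit genes had the motif in 6 of 44 windows and the small subunit genes in 5 of 25. Median GC content was 60.3% (quartiles 56.0 to 65.7) in MRP windows and 62.7% (53.7 to 70.0) in the others.

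Of the 11 members with the motif, 2 were marked in Ctrl (18.2%, interval 2.28 to 51.8) and 0 in HD, which allows up to 28.5%. Of the 58 without it, 4 were marked in Ctrl (6.90%, 1.91 to 16.7) and 2 in HD (3.45%, 0.420 to 11.9). The intervals overlap in each list, so these counts do not tell the members with and without the motif apart. Among other genes, those with the motif were marked in 14.0% (Ctrl) and 10.4% (HD), and those without it in 10.3% and 7.78%. So 5 of the 7 marked MRP promoters, including MRPS9 and MRPL32, lack the motif in the window, and most other marked genes lack it too (36.1% of 2297 hold it). Other marked genes had a median GC content of 67.3% and unmarked ones 61.7%, against 62.3% for the 7 marked and 60.2% for the 62 unmarked MRP windows.

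A short sequence of another kind was counted in the same windows. The core site of ETS factors, CCGGAAG on either strand, was present in 29 of 69 windows (42.0%, 30.2 to 54.5) and in 14.0% of the windows of other genes. ETS factors include GABP, also known as nuclear respiratory factor NRF-2, a regulator of nuclear genes for mitochondrial proteins. The marked genes MRPL33, MRPL51, MRPS23 and MRPL38 were among the 29, and 1 of the 29 windows had the site overlapping a G4 motif. The site was thus in 4 of 7 marked MRP windows (57.1%, 18.4 to 90.1) and in 25 of 62 unmarked ones (40.3%, 28.1 to 53.6), with overlapping intervals. Among other genes it was in 19.9% of marked and 13.0% of unmarked windows. The site was chosen after the peak data were seen, and a match to these letters does not show binding. No test was made on any of these sequence shares.

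**Figure D4:**
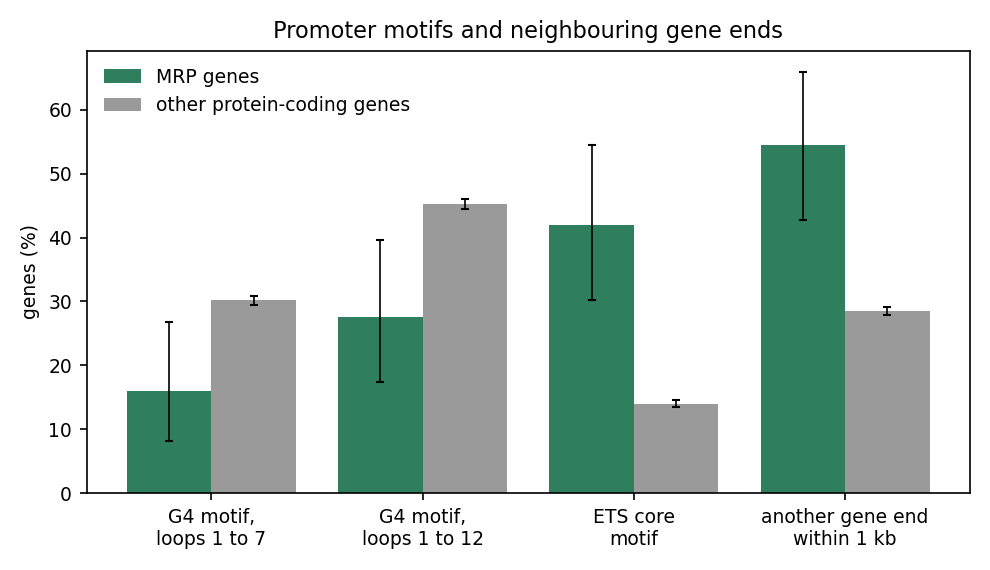
Percent of MRP genes and of other protein-coding genes whose promoter window holds a G4 motif with 1 to 7 or 1 to 12 bases between G runs or the ETS core site, and percent with an end of another protein-coding gene within 1 kb. Lines are exact 95% binomial intervals. The shares of MRP and other genes are 15.9% and 30.2% for the G4 motif, 42.0% and 14.0% for the ETS site, which was chosen after the peak data were seen, and 54.5% and 28.4% for a neighbouring end, and none of these differences was tested.

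The distance to neighbouring genes was described in the same way. An end of another protein-coding gene was within 1 kb of an end of 42 of 77 members (54.5%, 42.8 to 65.9), against 28.4% of other protein-coding genes. Among other genes, those with such a neighbour were marked at 17.2% and those without at 8.40% in Ctrl, and at 13.0% and 6.19% in HD. A peak between close ends can mark both genes. Among MRP genes, 2 of 42 with a neighbour were marked in Ctrl (4.76%, interval 0.582 to 16.2) and 1 in HD (2.38%, 0.0603 to 12.6). The intervals end just below the 17.2% and 13.0% of other genes with a neighbour, but rest on 2 and 1 marked genes. For all 77 members, not divided, the intervals include the share of all genes. Of the 35 members without a neighbour, 4 were marked in Ctrl (11.4%, 3.20 to 26.7) and 1 in HD (2.86%, 0.0723 to 14.9). These intervals include the 8.40% and 6.19% of other genes without one. The 3 marked members with a close neighbour were MRPL18 beside TCP1, MRPL32 beside PSMA2 and MRPL51 beside NCAPD2. Neighbouring genes share peaks and are not independent units, and no test was made on these shares. Expression and chromatin state were not measured, and their part in these shares was not tested.

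**Figure D5:**
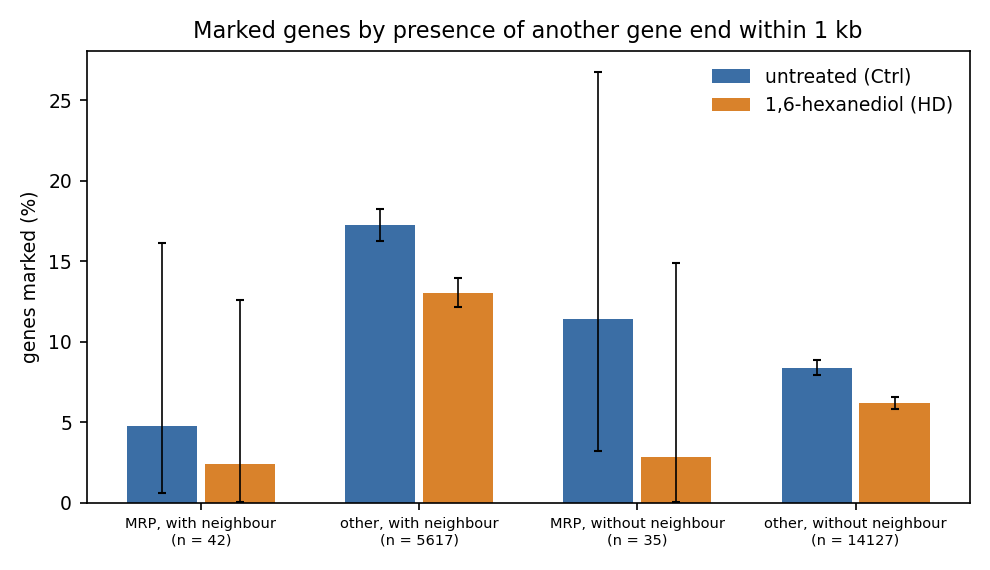
Percent of genes marked in Ctrl and HD, for MRP genes and other protein-coding genes with and without an end of another protein-coding gene within 1 kb, with exact 95% binomial intervals. MRP genes with a neighbour were marked at 4.76% and 2.38%, other genes with a neighbour at 17.2% and 13.0%. The MRP shares rest on 2 and 1 marked genes, and no difference was tested.

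The genes that build and serve the mitochondrial ribosome were described from 4 lists with 70 genes in all. Their marked shares were 18.6% in Ctrl (13 genes, interval 10.3 to 29.7) and 14.3% in HD (10 genes, 7.07 to 24.7), against 10.9% and 8.11% of all protein-coding genes. Both intervals include the share of all genes, and the lists were chosen with earlier results of these data known. The shares of the ribosomal protein genes, 7.79% and 2.60%, were lower, with overlapping intervals. Of 25 genes for assembly and ribosomal RNA modification, 5 were marked in Ctrl (20%) and 4 in HD (16%), with intervals that include the share of all genes. DHX30, an RNA helicase, had 29 and 35 fragments in Ctrl and HD, RMND1, an inner membrane protein needed for mitochondrial translation, had 29 and 38, and TFB1M, a methyltransferase of the small ribosomal RNA, had 33 and 39. The GTPase gene MTG2 and the endoribonuclease gene YBEY each had 21 in Ctrl alone, and the ribosome binding factor gene RBFA had 31 in HD alone. For the Ctrl peak of RMND1, 2 numbers matched the deposited values and the closest was taken.

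Of 15 genes of mitochondrial translation factors, 3 were marked in Ctrl (20%) and 2 in HD (13.3%), against 10.9% and 8.11% of all protein-coding genes. TUFM, the mitochondrial elongation factor Tu, had 29 and 37 fragments, MTRFR, a rescue factor for stalled ribosomes, had 24 and 38, and the initiation factor gene MTIF2 had 21 in Ctrl alone. Of 17 mitochondrial aminoacyl-tRNA synthetase genes, 3 were marked in Ctrl (17.6%) and 4 in HD (23.5%). The prolyl enzyme PARS2 had 33 and 40 fragments and the glutamyl enzyme EARS2 had 19 and 30. The methionyl enzyme MARS2 and the leucyl enzyme LARS2 had 31 and 35 in HD alone. Of 13 genes for transcription and replication of mitochondrial DNA, 2 were marked in Ctrl (15.4%) and 0 in HD, which allows up to 24.7%. The 2 were POLG, the mitochondrial DNA polymerase, with 17 fragments, and RNASEH1 with 18. The intervals around the shares of these lists all include the share of all protein-coding genes.

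The 7 genes of these lists with peaks in both conditions had depth-corrected HD to Ctrl ratios of 0.801 (TFB1M) to 1.07 (MTRFR and EARS2), around the 0.932 of MRPS9. Against local input, the ratios ran from 0.673 (RMND1) to 1.40 (PARS2). Every one of these intervals includes 1, but with 19 to 44 fragments a peak they are wide, and the 16 of them together span 0.404 to 2.29. At RMND1 in Ctrl and TFB1M in HD the expectation equalled the genome average (3.74 and 5.51 fragments). The local input ratios of RMND1 and TFB1M are therefore not local in both lists. These 8 genes were kept because both lists called a peak, which leaves out any gene whose signal fell below the call in 1 list, so the ratios do not show that the signal was alike.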

How the data were processed

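One BG4 ChIP-seq peak list was used for untreated U2OS cells and 1 for cells given hexanediol. The labels name each list for 2 ChIP libraries. Cells were fixed with formaldehyde at 1% for 10 min, per the labels' protocols. FastQC 0.11.9, Bowtie2 2.5.0, SAMtools, MACS2 2.2.7.1 and hg38 are named in the submitters' processing notes, with no settings. Each peak has a fold enrichment (a ratio over the caller's background), −log10 p and −log10 q, and a score, all deposited by the authors. Since each list was made separately, fold was used only within its list.

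Fragments at each summit were recovered from the caller's formulas, in which fold is a ratio of pileup to expectation, each with 1 added, and p is the Poisson probability of exceeding the scaled pileup. The scale was 0.927 for Ctrl and 0.715 for HD. A whole number matched −log10 p within 0.01 for 3501 of 3507 Ctrl and 2262 of 2269 HD peaks, and 4.88% and 4.10% had several matches, of which the closest was taken. The recovery was checked on simulated peaks.

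Gene positions and promoters came from RefSeq tables of GRCh38.p14. The table held 59792 genes, of which 794 on scaffolds or without a place, recognised from the table's order, were left out. Shares have exact Clopper-Pearson intervals, fragment numbers exact Poisson intervals, and HD to Ctrl ratios exact conditional binomial intervals that take the input as known. Intervals of ratios to input are the Poisson intervals divided by the expectation, so they too take the input as known. No test was made. The genes named were all marked members, the 3 unmarked members nearest a peak, the 3 marked members whose peak lay farthest from the gene, the marked genes of the pathway lists, of which 1 is not reported here, and for their sequences the 2 unmarked members with the most motif bases. Outside this rule, all members whose promoter holds the G4 motif, the neighbours of described peaks, the 5 subunits under other symbols, and MRPL12, MRPL58 and MRPS12 were named after the values were seen. Members and lists were chosen with earlier results of these data known. Alternatives were other windows, a higher −log10 q, equal list lengths, summits only, 1 gene per peak and an extended member list. Python 3.11.15 and scipy 1.17.1 were used.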

Additional observations from a re-analysis of the deposited data

How the results depend on the processing

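The counts of marked MRP genes (6 in Ctrl, 2 in HD, 1 in both lists) were within 1.5 times under all 7 alternatives: windows of 500 bp and 2 kb, −log10 q of at least 3, equal list lengths of 2172 peaks, summits in place of whole peaks, 1 gene per peak, and 5 added subunits. The Ctrl count was 5 with equal list lengths (6.49%, other genes 7.83%), and 5 with 1 gene per peak (6.49%, other genes 9.01%), in both cases without MRPL18. With equal list lengths the HD count could not change, because the HD list already held 2172 peaks. The share of MRP promoters with a G4 motif moved from 15.9% to 27.5% with up to 12 bases between runs, and that of other genes from 30.2% to 45.2%. The share of MRP genes with a neighbouring end was 46.8% at 500 bp, against 22.0% of other genes. The MRPS9 ratio was 0.932 by depth and 0.975 by local input, a scaling added after seeing the data. No paired analysis was possible because each condition has 1 peak list and no value per library, and for the same reason no library could be left out. With 77 genes and 2 to 6 of them marked, the intervals are wide, and a marked share as high as 16.2% in Ctrl or 9.07% in HD is not excluded by counting error.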
